A study of Callithrix jacchus with 39 samples.

Results

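The regions described here are stretches of marmoset chromatin that carried H3K27ac in 1 tissue, had no H3K4me3 on them in any library, and lay between 10 kb and 100 kb from the nearest H3K4me3 peak. They numbered 17873, out of 65161 regions in the H3K27ac catalogue of the series and 41524 catalogue regions without H3K4me3. The members were chosen from measured values, namely the positions of the deposited peaks. In each tissue the H3K27ac peaks that overlapped a peak of the other replicate by at least 1 bp were kept, and the kept peaks of 8 tissues were merged into the catalogue. A region was a member if kept peaks of exactly 1 tissue overlapped it and if it met the H3K4me3 conditions over all 15 H3K4me3 libraries. The tissue restriction, the absence of H3K4me3 and the gap are therefore given as descriptions, with no test.

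Chromatin of the common marmoset, Callithrix jacchus, was immunoprecipitated for H3K27ac with ab4729 and for H3K4me3 with ab8580, and sequenced. The tissues are liver, skeletal muscle, colon, spleen, pancreas, kidney, stomach and heart, with 2 numbered replicates per mark in each, except heart, which had 1 H3K4me3 library (replicate 2). All groups are untreated tissues as far as the labels tell, and the labels name no animal, sex, age or strain, nor whether replicate numbers stand for different animals. Whole tissues hold many cell types, so a peak cannot be assigned to 1 of them, and fewer cells with a mark cannot be told apart from less mark per cell. The 31 lists are peak calls per library on the build calJac3, with 24590 to 51554 peaks for H3K27ac and 16386 to 24424 for H3K4me3. Read depth is unknown, so a region without a peak in a library is one where none was called. The tissue labels were not checked against marker genes here.

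H3K27ac is an acetylation of histone H3 that is laid down by the acetyltransferases p300 and CBP at active promoters and enhancers. H3K4me3 is a trimethylation concentrated at the start sites of active or poised genes. Acetylated chromatin without H3K4me3, away from start sites, is the usual signature of an active distal enhancer, an element that binds transcription factors and raises the activity of genes along the same chromosome. Enhancers are known to differ more between tissues than promoters do. The name enhancer-like refers here to the marks alone, since no reporter assay or second enhancer mark is part of these files, and a member's target gene was not analysed here.

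Liver held the most members and heart the fewest. Liver had 4839 of them, skeletal muscle 3581, colon 3202 and spleen 2143. There were 1497 in pancreas, 1275 in kidney, 948 in stomach and 388 in heart. The order runs with the length of the H3K27ac lists at its ends: the liver lists were the longest (46317 and 51554 peaks) and the heart lists the shortest (26689 and 24590 peaks). The part of list length in the order was not tested. When each list was limited to its 20000 strongest peaks, the rule found 7076 members.

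The share of one-tissue enhancer-like regions that fell at this distance hardly varied between tissues. Members made up 55.5 ± 1.09% of the one-tissue enhancer-like regions of a tissue (SD, n = 8), with a low of 53.8% in liver and a high of 57.5% in kidney. A further 10543 such regions lay under 10 kb from H3K4me3, and 4031 were counted as over 100 kb away. Of the latter, 294 have no measured gap, since their sequences held no H3K4me3 peak at all. These 294 do not enter the comparisons of marks at the nearest H3K4me3 region below. Of the 32447 one-tissue regions 55.1% lay in this range, against 53.8% of 9077 enhancer-like regions of 2 or more tissues. The distance itself did shift with breadth. One-tissue regions had a median gap of 20.5 kb, regions of 2 tissues 16.9 kb, regions of 4 tissues 14.6 kb and the 51 regions of all 8 tissues 8.23 kb. No test is given, because broader regions are longer after merging and the rule uses the gap.

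Within the range, members were denser toward H3K4me3. Of all members 5277 lay at 10 to 20 kb, 7698 at 20 to 50 kb and 4898 at 50 to 100 kb. One-tissue regions numbered 528 per kb of gap at 10 to 20 kb, 180 per kb at 40 to 50 kb and 57.2 per kb at 90 to 100 kb. The median gap of members was 30.6 kb, with tissue medians from 29.6 kb in liver to 35.3 kb in pancreas. The 10 kb and 100 kb limits lie within this decline. The member just inside the lower limit, a colon region, had a gap of 10000 bp and fold enrichments of 8.08 and 5.51 in its replicates, and the region just outside, from spleen, had 9999 bp and 4.52 and 3.55. At the upper limit a pancreas member had 99995 bp and 5.72 and 6.89, and a liver region just outside had 100042 bp and 6.20 and 4.50.

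The members were scattered over the assembled chromosomes, which held 17678 of them. They made up between 11.8% (chromosome 22) and 33.1% (chromosome 14) of the catalogue regions of a chromosome. Chromosome 22, which had 1893 merged H3K4me3 regions, held 3.80% of the catalogue and 1.63% of the members, and the X chromosome held 1.90% and 1.35%. Chromosome 3 held 4.39% of the catalogue and 4.90% of the members. On chromosome 22 members were 37.8% of the one-tissue enhancer-like regions, against 55.1% over all sequences.

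Members were short, single peaks of modest strength. Their median length was 765 bp, with 80% of them between 461 bp and 1566 bp, and the longest, in liver, spanned 7528 bp. The median per tissue was highest in liver (838 bp) and colon (820 bp) and lowest in heart (614.5 bp) and stomach (659 bp). In 88.4 ± 3.84% of members each replicate of the tissue contributed exactly 1 peak (SD over 8 tissues). The summits of the strongest peaks of both replicates lay a median of 118 ± 12.5 bp apart, and 59.2 ± 3.44% lay within 150 bp (SD over 8 tissues).

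The authors' fold enrichment is given below as it stands in the lists, together with its percentile within the list, since folds of different lists are not on one scale. In colon the median member had a fold of 7.17 in replicate 1 (list median 7.34) and 5.59 in replicate 2 (list median 6.37). In liver the values were 5.83 (6.12) and 5.55 (5.81), and in skeletal muscle 5.02 (5.36) and 5.38 (5.90). Members thus sat a little below the middle of their lists in these tissues. Spleen members had 4.80 (5.18) and 4.92 (5.45), pancreas members 6.49 (6.87) and 4.95 (5.30), and kidney members 6.24 (6.33) and 4.62 (5.17). Stomach members had 4.93 (5.90) and 4.72 (5.40), and heart members 5.19 (6.05) and 4.94 (6.04). In all 16 libraries the median member was below the list median. Heart and stomach members ranked lowest, with median percentiles of 29.96 and 24.2 in heart and 28.6 and 33.6 in stomach, and kidney replicate 1 ranked highest at 48.6.

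Few members were among the strongest peaks. The strongest 10% of a list took in between 0 (heart, both replicates, and stomach replicate 2) and 2.98% (kidney replicate 1) of the members of the tissue, and the weakest 10% between 8.56% (liver replicate 2) and 26.03% (heart replicate 2). Across the members of a tissue the percentiles of both replicates had a Spearman rho between 0.447 (spleen) and 0.650 (skeletal muscle). These are correlations across regions of the same libraries, which are not independent replicates. In the same range of 10 kb to 100 kb, enhancer-like regions of more tissues ranked higher on average. The median percentile was 39.1 ± 5.97 for members, 42.7 ± 4.29 for regions of 2 tissues and 47.2 ± 5.57 for regions of 3 or more (SD, n = 8). Pancreas was the exception, with 44.0 for members and 41.9 for regions of 2 tissues. The strongest peak of each region was ranked, and broader regions are longer after merging, whose part was not tested. This is a description, with no test.

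**Figure D1:**
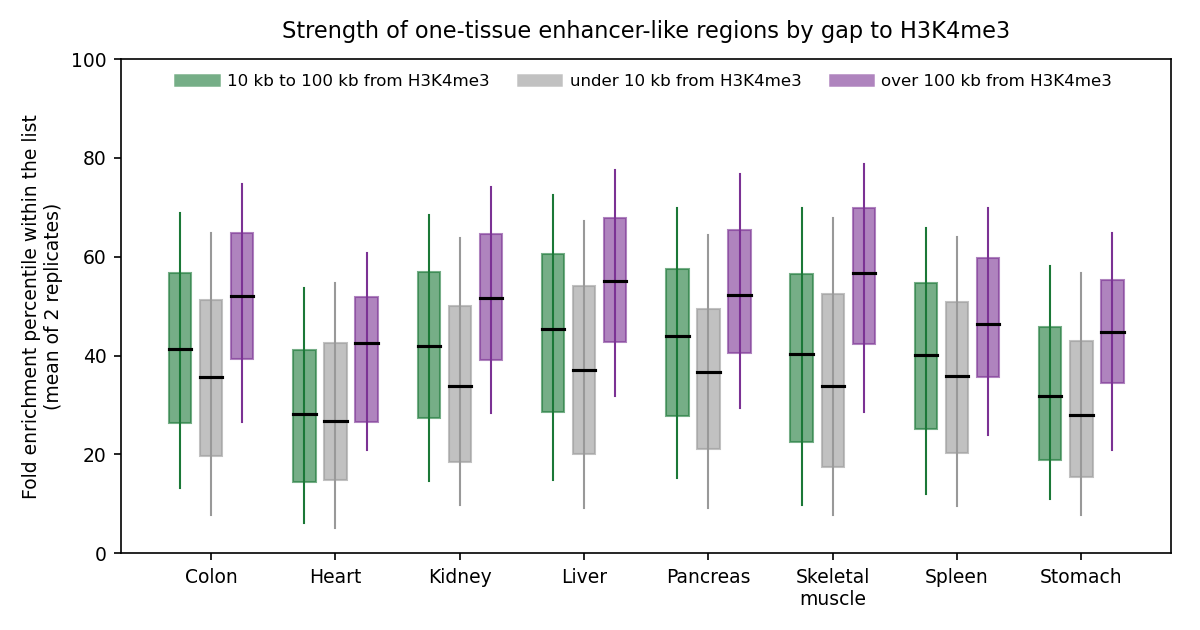
Percentile of fold enrichment within the list (y axis, mean of both replicates) of one-tissue enhancer-like regions in 8 tissues, for members (green) and for regions under 10 kb (grey) or over 100 kb (purple) from H3K4me3. Black bars are medians, boxes quartiles and lines the central 80% of regions. In every tissue the median of members lies above that of nearer regions and below that of farther ones.

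Peak strength followed the gap to H3K4me3. Members had a median percentile of 39.1 ± 5.97, against 33.4 ± 3.95 for one-tissue regions under 10 kb away, a difference of 5.73 ± 2.38 points that was positive in 8 of 8 tissues (SD, n = 8), with p = 0.00781 and an adjusted p of 0.0127 in a two-sided permutation test that is exact over the signs of 8 tissue values. Against regions over 100 kb away, at 50.1 ± 5.04, members had a difference of -10.99 ± 3.29 points, below 0 in 8 of 8 tissues (SD, n = 8), with p = 0.00781 and an adjusted p of 0.0127 in the same exact test. The value 0.00781 is the smallest that 8 tissues allow. The rule leaves out any region that overlaps H3K4me3, and the part of this in the differences was not tested. Within the members the means kept the same order, with 35.1 ± 4.94 at 10 to 20 kb, 37.8 ± 6.03 at 20 to 50 kb and 45.1 ± 5.77 at 50 to 100 kb (SD, n = 8). Kidney departed from it, with 38.9 at 10 to 20 kb and 38.7 at 20 to 50 kb. Heart had 25.9 at 10 to 20 kb, below the 26.8 of its regions under 10 kb away. The difference from nearer regions was smallest in heart (1.48 points) and largest in liver (8.38), and with the range narrowed to 10 to 50 kb it was 3.34 points (adjusted p = 0.0226 from the same permutation test).

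For length, which comes from the peak positions that the rule used, both differences are given as descriptions, with no p. The median length of members exceeded that of nearer regions by 16 ± 20.8 bp, with 6 of 8 tissues above 0 (SD, n = 8). Against farther regions the difference was -18.8 ± 35.4 bp, positive in 2 of 8 tissues (SD). The tissue values ran from -79.0 bp in colon to 32.0 bp in pancreas.

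The nearest H3K4me3 region of a member was, in most cases, either ubiquitous or seen in 1 tissue, and merged H3K4me3 regions as a whole were much the same. The H3K4me3 peaks of all libraries merged into 35161 regions, and 8848 of them were the nearest one of some member. The nearest region carried H3K4me3 in all 8 tissues for 39.7% of members and in 1 tissue for 36.2%, against 37.6% and 33.1% of all merged H3K4me3 regions. A single library supplied the nearest region for 29.9% of members, against 27.6% of all merged H3K4me3 regions. H3K27ac kept in 8 tissues lay on the nearest region for 22.7% of members, and no kept H3K27ac of any tissue for 22.4%, against 21.2% and 29.9% of all merged H3K4me3 regions.

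A member's nearest H3K4me3 region carried H3K27ac of the member's own tissue more often than other members' nearest regions did. This comparison uses what the rule did not, namely which tissue marked the nearest region. The share was 51.8 ± 8.15% for members of the tissue, against 42.0 ± 5.48% for members of the 7 other tissues, a difference of 9.83 ± 4.51 percentage points that was positive in 8 of 8 tissues (SD, n = 8), with p = 0.00781 and an adjusted p of 0.0127 in the exact permutation test. In colon 60.02% of colon members, against 44.2% of other members, had colon H3K27ac there. In liver the shares were 64.9% and 51.3%, in skeletal muscle 50.04% and 37.5%, and in spleen 47.6% and 36.0%. Stomach followed with 54.1% and 43.3%, and pancreas with 53.5% and 46.9%. The gap between the shares was narrowest in kidney (44.7% and 40.8%) and heart (39.7% and 35.9%).

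H3K4me3 of the own tissue showed the same in 7 of 8 tissues. The share was 63.5 ± 10.3% for members of the tissue and 55.5 ± 6.47% for members of other tissues, a difference of 7.97 ± 4.24 points (SD, n = 8), with p = 0.0156 and an adjusted p of 0.0226 in the exact permutation test. Colon had 14.1 points, liver 11.8, skeletal muscle 9.13 and kidney 7.49, with 7.30 in stomach, 7.25 in spleen and 7.11 in pancreas. Heart, with its single H3K4me3 library, had -0.44 points. With the range narrowed to 20 to 100 kb the difference was 6.30 points and no longer passed (exact permutation test, adjusted p = 0.0508).

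Where the nearest region was marked in 1 tissue alone, the share in which that tissue was the member's own differed widely between tissues. For 3546 members the nearest H3K4me3 region held kept H3K27ac of exactly 1 tissue, and for 1446 of them, 40.8%, it was the tissue of the member. By tissue this share averaged 30.7 ± 16.5% for members of the tissue, against 9.16 ± 8.28% for members of other tissues (SD, n = 8). The share was highest in liver, at 60.8% against 27.4% for the other members, and lowest in heart, at 10.5% against 1.71%, with 18.7% against 4.88% in kidney. Of 6462 members whose nearest region had H3K4me3 in 1 tissue alone, 2254 shared that tissue. By tissue this averaged 25.8 ± 16.01% for members of the tissue, against 9.995 ± 8.31% for members of other tissues (SD, n = 8), and it ran between 2.86% in heart and 51.4% in liver. These counts describe a subset of the regions tested above and are no second test.

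**Figure D2:**
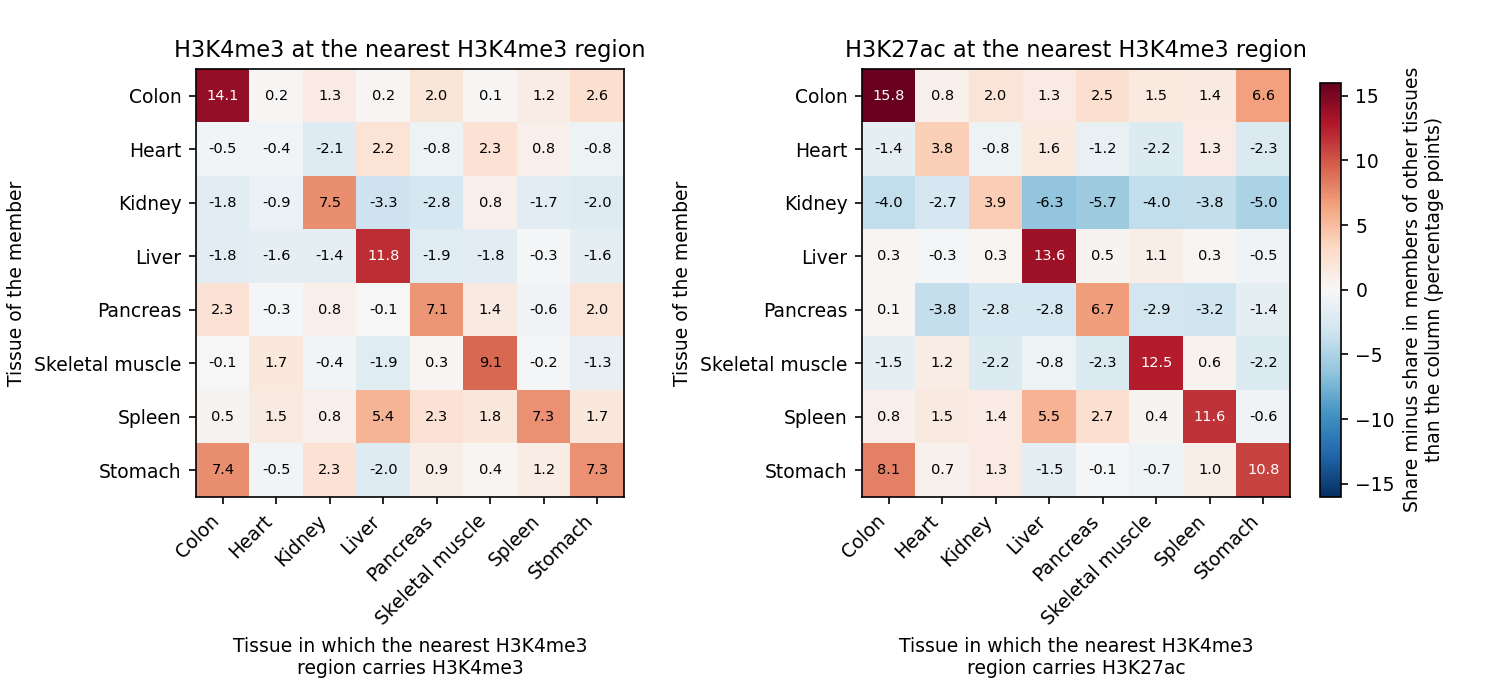
Share of members (rows, by tissue) whose nearest H3K4me3 region carries H3K4me3 (left) or kept H3K27ac (right) of a given tissue (columns), minus the same share over all members that are not of the column's tissue, in percentage points. The diagonal is the highest value of its row in 8 of 8 rows for H3K27ac and in 6 of 8 for H3K4me3.

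The grid of tissues showed a few values off the diagonal. Stomach members had colon H3K27ac at the nearest H3K4me3 region more often than all members not of colon, by 8.09 points, and colon members had stomach H3K27ac more often by 6.59 points. For H3K4me3 stomach members had a higher value for colon (7.38 points) than for stomach (7.30). Spleen members had liver H3K27ac more often by 5.52 points and liver H3K4me3 by 5.40. Kidney members had lower values for each of the 7 other tissues in H3K27ac, down to -6.25 points for liver. These off-diagonal values were not tested.

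The own-tissue difference was much smaller than that of regions close to H3K4me3 and was not shown to differ from that of remote regions. For H3K27ac it was 9.83 points in members and 29.0 ± 6.32 points in one-tissue regions under 10 kb away, a difference of -19.1 ± 3.56 that was below 0 in 8 of 8 tissues (SD, n = 8), with p = 0.00781 and an adjusted p of 0.0127 in the exact permutation test. For H3K4me3 the corresponding difference was -15.1 ± 3.68, below 0 in 8 of 8 tissues (SD, n = 8), with p = 0.00781 and an adjusted p of 0.0127 in the exact permutation test. Against regions over 100 kb away it was 1.83 ± 3.19 points for H3K27ac (5 of 8 tissues positive, exact permutation test, p = 0.203, adjusted p = 0.220) and 0.85 ± 3.78 points for H3K4me3 (5 of 8, exact permutation test, p = 0.531, adjusted p = 0.531). The tissue values of these last differences ran from -1.64 to 6.57 points and from -6.95 to 5.63 points. Their mean signs turned with the range, to -0.14 points for H3K27ac at 10 to 50 kb and -0.81 points for H3K4me3 at 20 to 100 kb.

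Most of the decline with distance lay inside the first 20 kb. The own-tissue H3K27ac difference was 12.8 ± 3.89 points at 10 to 20 kb, 7.27 ± 6.44 at 20 to 50 kb and 10.8 ± 4.40 at 50 to 100 kb (SD, n = 8). For H3K4me3 the values were 12.3 ± 3.45, 6.36 ± 6.58 and 6.08 ± 6.42. Heart had 15.9, -3.51 and 4.11 points in these ranges in H3K27ac, and 15.95, -8.38 and -3.26 points in H3K4me3. At 20 to 50 kb it was the lowest tissue for both marks, whereas at 10 to 20 kb the lowest were kidney in H3K27ac (6.5 points) and stomach in H3K4me3 (5.98). Colon stayed above the mean of tissues in all of these ranges for both marks.

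**Figure D3:**
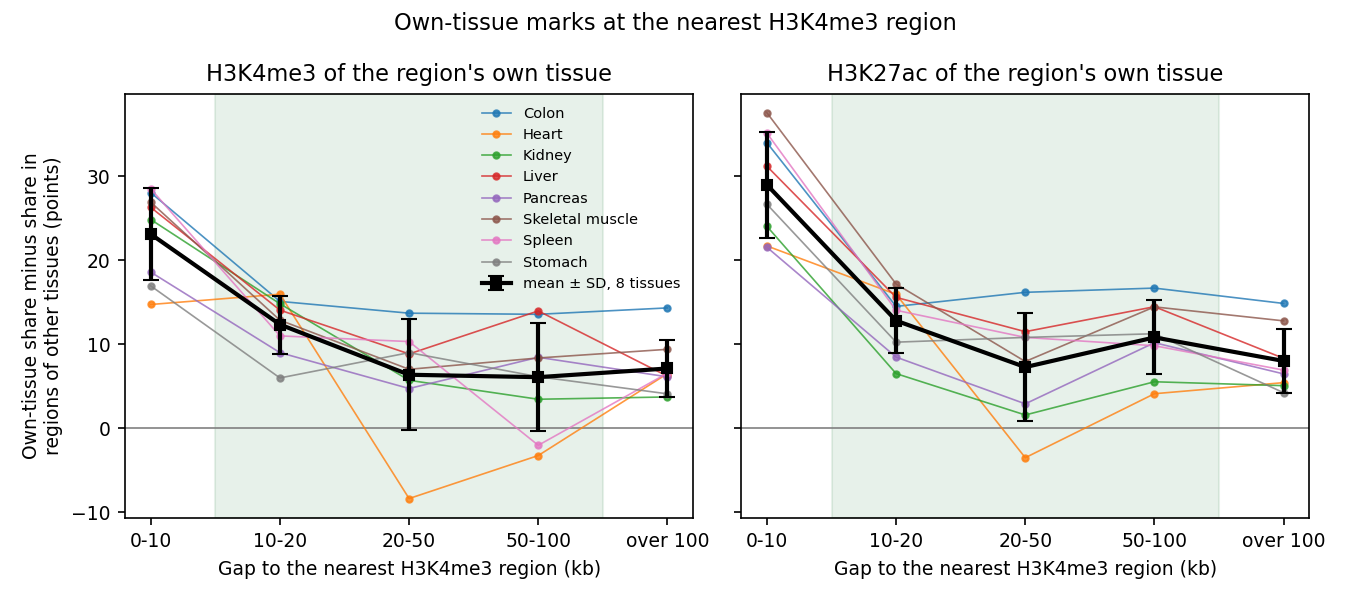
Own-tissue minus other-tissue share of regions whose nearest H3K4me3 region carries H3K4me3 (left) or kept H3K27ac (right), in percentage points, by gap to that region. Thin lines are tissues, black squares the mean ± SD of 8 tissues, and the shaded ranges are those of the members. The mean drops between the ranges under 10 kb and 10 to 20 kb and is above 0 in all ranges.

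H3K4me3 lay within 100 kb on both sides of 9473 members, or 53.0%. In these the nearest side was a median of 24.2 kb away and the opposite side 57.3 kb. The own-tissue H3K27ac difference was 7.91 ± 4.46 points at the nearest side and 4.63 ± 3.84 points at the opposite side, positive in 8 and 7 of 8 tissues (SD, n = 8). Nearest minus opposite was 3.28 ± 3.72 points, positive in 7 of 8 tissues (exact permutation test, p = 0.0469). For H3K4me3 it was 3.59 ± 5.05 points (7 of 8 tissues, exact permutation test, p = 0.0938). This comparison was added after the values above were known, and its p-values are not adjusted. Stomach had the largest difference between the sides, 9.25 points in H3K27ac, and heart had -1.49.

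The nearest other members were often of the same tissue. The nearest other member was of the same tissue for 46.2 ± 14.4% of the members of a tissue, whereas it was of that tissue for 6.92 ± 4.24% of members of other tissues. In 8 of 8 tissues the difference was positive, and it averaged 39.3 ± 10.7 points (SD, n = 8). It is given as a description, with no p, because the rule used the positions and tissues of the peaks: regions where kept peaks of different tissues overlap are no members, while separate peaks of 1 tissue close to each other are several. Liver had a same-tissue share of 63.5%, skeletal muscle 61.2%, colon 55.3% and spleen 47.4%. It was 44.1% in kidney, 41.5% in pancreas, 38.2% in stomach and 18.6% in heart. Same-tissue neighbours were close, at a median gap of 0.831 kb, and 80.1% of them lay within 12 kb, against 28.3 kb and 32.9% for neighbours of different tissues. Much of the grouping was therefore local. With members of 1 tissue within 12 kb counted as 1, 15.5 ± 9.02% of units of a tissue, against 11.9 ± 7.13% of units of other tissues, had a neighbour of that tissue, which left 3.59 ± 2.002 points (SD, n = 8). That count was chosen after seeing the data, and it removes close neighbours of the same tissue but not of others.

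Joined within 12 kb, the members formed 13187 units, of which 9844 were single regions. The remaining 3343 runs took in 8029 members, or 44.9%. Skeletal muscle had 52.2% of its members in runs, liver 50.8%, colon 44.7% and heart 17.8%. Runs of 5 or more members numbered 88, with 35 in skeletal muscle, 34 in liver and 12 in colon. Members in runs had a median percentile of 37.9 ± 6.09 and single members 40.2 ± 6.58 (SD, n = 8), a description with no test.

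Counting every kind of catalogue region, the nearest one to a member was another one-tissue region of the same tissue for 47.1% of members, at a median of 0.512 kb. It was a one-tissue region of another tissue for 22.1% (9.34 kb), a promoter-like region with H3K4me3 for 13.9% (22.6 kb) and an enhancer-like region shared with other tissues for 12.8% (1.09 kb). For the remaining 4.18% it was an enhancer-like region of 2 or more other tissues.

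The restriction to 1 tissue holds for peaks that overlap between replicates and not for every single library. In 33.6% of members, the complement of the 66.4% (11862 regions) that had none, an H3K27ac peak of another tissue that had not been kept overlapped the region. Such a peak came from 1 other tissue in 22.9% of members, from 2 in 7.70% and from 3 or more in 3.04%. In 231 pairs of a member and another tissue both libraries of that tissue had a peak on the member, without these peaks meeting each other. By tissue the share with such a peak was lowest in skeletal muscle (25.7%), liver (29.4%) and colon (31.04%) and highest in heart (58.8%), spleen (48.1%) and stomach (47.5%). Single libraries of other tissues overlapped between 1.64% (spleen replicate 2 and colon replicate 2) and 6.97% (liver replicate 2) of the members they could meet.

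Members met such unkept peaks less often than nearer regions did and more often than remote ones. The share was 38.7 ± 11.5% of members and 43.1 ± 11.97% of regions under 10 kb from H3K4me3, a difference of -4.34 ± 2.07 points, below 0 in 8 of 8 tissues (SD, n = 8), with p = 0.00781 and an adjusted p of 0.0127 in the exact permutation test. Without liver H3K27ac replicate 2 it was -2.81 points, and with the range narrowed to 20 to 100 kb it was -3.83 points and did not pass (exact permutation test, adjusted p = 0.0564). Against 30.6 ± 9.16% of regions over 100 kb away the difference was 8.12 ± 4.03 points, positive in 8 of 8 tissues (SD, n = 8), with p = 0.00781 and an adjusted p of 0.0127 in the exact permutation test. With the range narrowed to 10 to 50 kb it was 4.37 points (exact permutation test, adjusted p = 0.0226).

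Members of some tissues were met most by unkept peaks of particular tissues. Stomach members were met by colon in 23.5% and by pancreas in 19.5%, and colon members by stomach in 15.5%. Over all members not of the tissue concerned, colon met 5.12%, pancreas 10.2% and stomach 6.48%. Heart members were met by spleen in 25%, by kidney in 19.3%, by pancreas in 17.5%, by liver in 16.5% and by skeletal muscle in 14.7%. The shares over all members were 5.98% for spleen, 7.23% for kidney, 10.9% for liver and 4.65% for skeletal muscle, so heart members were above them for each of these tissues. Skeletal muscle members were met by heart in 8.46%, against 5.25% over all members. Spleen members were met by liver in 22.4% and by pancreas in 17.5%. The lists of these tissues differ in length, whose part in the shares was not tested.

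**Figure D4:**
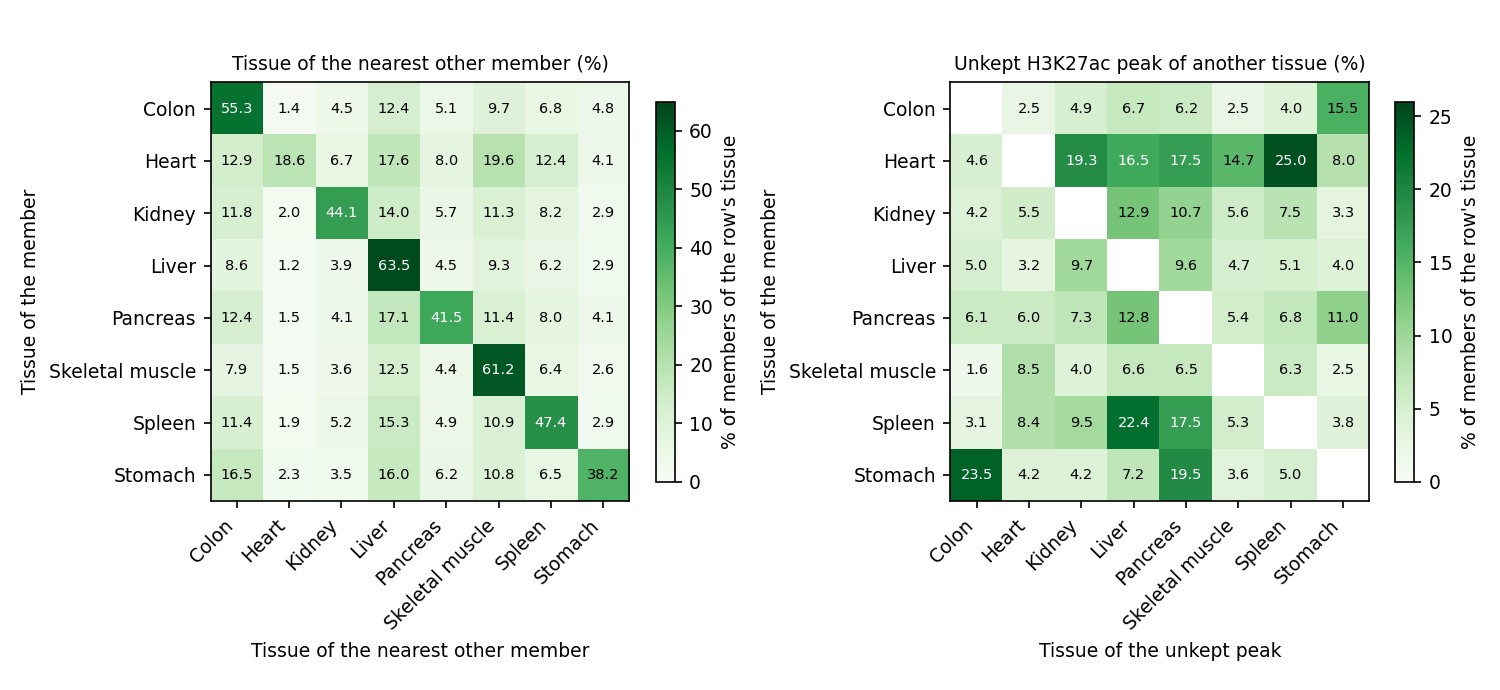
Left, tissue of the nearest other member (columns) for members of each tissue (rows), in % of members. Right, % of members of each tissue overlapped by an H3K27ac peak of another tissue that was found in no overlap between the replicates of that tissue. The left diagonal runs from 18.6% in heart to 63.5% in liver, and the highest values on the right are heart with spleen (25%) and stomach with colon (23.5%).

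The strongest members are named by position on calJac3, 2 per tissue, as those with the highest value of the lower of their replicates' percentiles. They show what the H3K27ac lists hold at such sites. The first colon member lay at chromosome 6, 26467127 to 26469777, with fold enrichments of 19.7 and 15.6 in colon replicates 1 and 2 (percentiles 96.3 and 95.8) and a peak in none of the other 14 H3K27ac libraries. The other colon member, at chromosome 21, 40706766 to 40708600, had 22.0 and 13.8, again with no peak elsewhere, and its summits lay 6 bp apart. In both cases the nearest H3K4me3 region, 42.5 kb and 11.4 kb away, carried no colon H3K4me3 and no kept H3K27ac. The first liver member, 4350 bp long at chromosome 10, 106469480 to 106473829, had 15.5 and 20.2 in liver and a peak in spleen replicate 2. Its nearest H3K4me3 region, at 19.1 kb, was marked in 7 tissues. The other liver member, at chromosome 2, 93210530 to 93212795, had 18.0 and 19.96 and no peak elsewhere. Here the nearest H3K4me3 region, 77.4 kb away and 2738 bp long, carried H3K4me3 and kept H3K27ac in liver alone, the tissue of the member. Unkept H3K27ac peaks of other tissues on that region were not counted.

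Skeletal muscle gave neighbours 0.288 kb apart. The first, at chromosome 6, 1893581 to 1895260, had fold enrichments of 13.1 and 14.9, and the other, at 1895549 to 1896534, had 12.8 and 13.1 and a peak in heart replicate 2. Their nearest H3K4me3 region, 25.4 kb from the first, was a 332 bp peak of 1 skeletal muscle library. The kidney members lay at chromosome 7, 145121507 to 145123242, with 12.3 in both replicates, and at chromosome 5, 27648130 to 27650316, with 11.1 and 9.35. The first of them also had peaks in skeletal muscle replicate 1 and spleen replicate 2, and the second in no other library. The pancreas members, at chromosome 6, 154627439 to 154629397, and chromosome 2, 161129668 to 161131215, had 15.6 and 11.7, and 14.9 and 12.5, with no peak in another tissue. The second had a nearest H3K4me3 region marked in all 8 tissues and acetylated in 7, pancreas among them.

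In spleen the first named member, at chromosome 6, 154029160 to 154030211, had 10.6 and 10.9 and peaks in the replicate 2 libraries of colon, heart, kidney, liver and pancreas, so it was called in 5 single libraries of other tissues. The other, at chromosome 10, 131621183 to 131623843, had 10.3 and 10.5. The stomach members, at chromosome 1, 73606916 to 73609002, and chromosome 7, 46076238 to 46077612, had 11.7 and 9.97, and 12.9 and 9.30. The nearest H3K4me3 region of the first was marked and acetylated in all 8 tissues, and that of the second was marked in 8 and acetylated in none. The heart members, at chromosome 15, 82573317 to 82573952, and chromosome 22, 3323263 to 3323900, had 7.13 and 7.49, and 7.12 and 8.32, at percentiles between 68.0 and 75.1. Of the 16 named members 7 had a peak in at least 1 library of another tissue.

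The run with the most members lay in liver, at chromosome 6, 21416005 to 21461970, where 10 members covered 12.5 kb of a 46.0 kb span. H3K27ac covered 8.92 kb of it in liver replicate 1 and 14.6 kb in replicate 2, with member folds of 3.59 to 6.39 and 3.18 to 6.39. Peaks of 7 libraries of other tissues also lay there, the widest with 3.38 kb, so the run as a whole was not free of other tissues. The skeletal muscle run, at chromosome 10, 86123681 to 86142488, held fewer peaks of other tissues. Its 8 members covered 10.4 kb of 18.8 kb, H3K27ac covered 9.45 kb and 10.8 kb in the replicates, and 1 library of another tissue had 0.421 kb. Its nearest H3K4me3 region, 46.2 kb or more away, was marked in all 8 tissues and acetylated in 5, skeletal muscle among them.

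**Figure D5:**
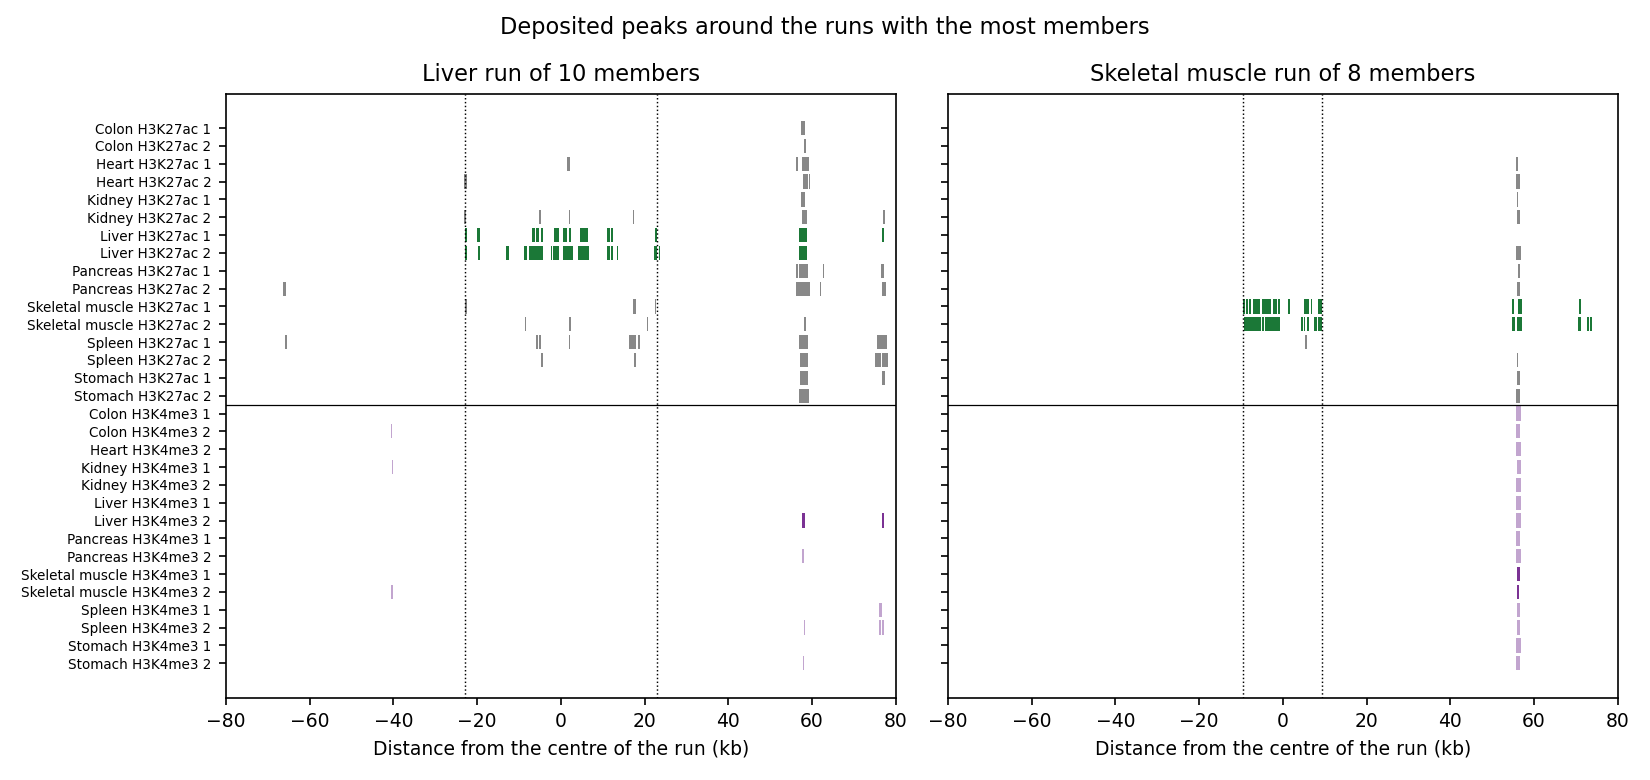
Deposited peaks of all 31 libraries (rows) by distance in kb from the centre of the liver run of 10 members (left) and the skeletal muscle run of 8 members (right). H3K27ac is green in the run's own tissue and grey in others, H3K4me3 dark purple and light purple, and dotted lines mark the run. In the skeletal muscle run 1 peak of another tissue is seen, and in the liver run peaks of 7 other libraries.

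The longest runs of the other tissues had fewer members. Colon had 6 members over 24.9 kb at chromosome 8, 122405907 to 122430801, with 6.83 kb and 4.86 kb of H3K27ac in its replicates. Pancreas had 6 members over 11.7 kb at chromosome 17, 28502031 to 28513683 (6.24 kb and 6.36 kb), and stomach 6 members over 13.1 kb at chromosome 8, 90713403 to 90726516 (5.46 kb and 5.72 kb). Spleen had 5 members at chromosome 5, 63297377 to 63305681 (4.23 kb and 3.83 kb), the run with no peak of any other tissue's H3K27ac libraries. Just past its end, from 4.28 kb off its centre, a peak of spleen replicate 1 with a fold of 7.60 overlapped peaks of both liver replicates. Kidney had 5 members at chromosome 14, 33674424 to 33684975 (4.23 kb and 2.84 kb), and heart 3 at chromosome 7, 58740662 to 58747915 (1.84 kb and 1.28 kb). The nearest H3K4me3 region carried the run's own tissue in both marks in the colon, kidney and skeletal muscle runs. It carried neither in the heart, pancreas, spleen and stomach runs, and in the liver run it differed between members.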

How the data were processed

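Per the labels and the peak names, each deposited file is the narrowPeak list of 1 library on calJac3. Per the submitters' processing notes bedtools 2.26, MACS2 2.1.1.20160309, Bowtie 1.1.2 and SAMtools 1.3.1 were used, in roles that are not stated. The authors deposited a score, a fold enrichment ratio, a −log10 p-value (lowest 5.09) and a −log10 q (lowest 3.04) per peak. The sources used here do not give how the 8 input samples entered the peak calls.

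Overlap meant 1 bp, and touching peaks were merged. Folds were ranked within each list. Calculations used Python 3.11.15, numpy 2.4.6, scipy 1.17.1 and matplotlib 3.10.9. Each of 13 tests took 1 value per tissue in a two-sided exact sign-flip permutation test (256 sign patterns), with Benjamini-Hochberg adjustment over the 13. The test of same-tissue neighbours was among them, but its p is not reported. The p-values measure the spread between these tissues. In the own-tissue comparisons the members of a tissue also enter the values of the other tissues. Those values are thus not independent, which the test does not take into account. The code was tested on simulated lists. Members, tests and alternatives were chosen with earlier results of these data known. Named regions were the 2 strongest members and the longest run per tissue. Base composition, sequences and genes were not analysed here, since no calJac3 genome or annotation was used.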

Additional observations from a re-analysis of the deposited data

Results flagged for a closer look

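Of 16 sets of 8 tissue values that were examined for a tissue standing apart from the rest, 2 had one, and heart was the lowest both times. Chance flags about 1 in 20 such sets. The own-tissue H3K4me3 difference between members and regions over 100 kb away was -6.95 points in heart, with -0.26 points in the next tissue. The same-tissue excess among nearest members was 17.1 points in heart, with 34.9 in the next tissue, stomach. Heart had the fewest members (388), the shortest H3K27ac lists and 1 H3K4me3 library, and the part of these in its values was not tested.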

How the results depend on the processing

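The rule and the 13 tests were recomputed under other choices of peaks, overlap and range, without each of 31 libraries, with a replicate block where it applies, and under alternatives chosen after seeing the data. Of 556 recomputed values 551 kept their direction and side of the threshold, or for counts stayed within 1.5 times. Most of these values came from leaving out 1 of 31 libraries at a time, and they include differences that never passed. The count does not speak to size: the same-tissue neighbour difference is in it, though it fell from 39.3 to 3.59 points in 1 alternative. Limited to their 20000 strongest peaks, the lists gave 7076 members. With a gap of 20 to 100 kb the own-tissue H3K4me3 difference was 6.30 (adjusted p = 0.0508, exact permutation test) and the unkept-peak difference from nearer regions -3.83 (adjusted p = 0.0564), and the own-tissue H3K4me3 difference from remote regions, which does not pass in either case, changed sign to -0.81. With a gap of 10 to 50 kb the own-tissue H3K27ac difference from remote regions changed sign to -0.14. The cause was not tested. Without 1 library in turn the number of members ranged from 17878 to 22750, where a tissue left with 1 list kept it whole. By replicate number, 0 of 28 tissue pairs had a correlation over 0.1, with values from -0.011 to 0.042. Whether equal replicate numbers stand for the same animal was not tested. The replicate block gave 5.78 points for own-tissue H3K4me3 and 9.98 for own-tissue H3K27ac, with no call changed. Without heart these were 9.17 and 10.7 points in 7 tissues. Unknown read depth limits all counts of absence.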
